A study of Bos taurus with 8 samples.

Results

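The miR-29 family in bovine follicular fluid was described here through its mature miRNAs bta-miR-29a, bta-miR-29b and bta-miR-29c, which are 3 of the 1028 miRNAs in the deposited table. They were picked by name, by a rule that uses no measured value. miR-29 miRNAs share the same seed, the stretch near the 5′ end that pairs with target mRNAs. They are known, mainly from human and mouse work, as repressors of collagens and other matrix proteins and of the DNA methyltransferases DNMT3A and DNMT3B. In the mammalian follicle the matrix is rebuilt as granulosa and theca layers grow.

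The libraries were made from extracellular vesicles (EVs), small membrane-bound particles that cells release, isolated from follicular fluid (FF) by ultracentrifugation. The fluid came from open, non-lactating *Bos taurus* crossbred beef cows sampled by ovum pick-up in summer (SUM, 4 libraries) and in winter (WIN, 4 libraries), and the study asked how FF-EV miRNAs differ between these seasons. Each library was a pool of 2 animals, and cows of both groups had received a progesterone device, a GnRH analog and FSH before collection. The same cows were sampled in both seasons, but which cows each pool holds, and so whether pools match between seasons, is not given. Season cannot be told apart from other differences between the collection sessions. Ages were not given in the sources used here.

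All values are TMM-adjusted CPM, that is, read counts of a mature miRNA divided by a scaled library size and put on a common scale, with no length term because mature miRNAs are nearly equal in length. The libraries held 214004 to 1689467 miRNA reads, so that 1 read was worth 0.567 to 4.02 CPM. SUM replicate 3 and WIN replicate 1 were the shallowest libraries and, as a consequence, the least precise for rare miRNAs. miR-202, a miRNA of the gonads, was present in every library, at 5628 to 11850 CPM in SUM and 3086 to 5539 CPM in WIN. Its seasons did not overlap, as was so for 16.0% of all tested miRNAs (39 of 243). It did not pass the season test (adjusted p = 0.11 from limma). miRNAs of other sources were present too, with miR-122 of the liver at 2690 to 16943 CPM and the summed red blood cell miRNAs (3 of 3 detected) at 2439 to 25918 CPM. The summed striated muscle miRNAs (3 of 3 detected) were at 776 to 909 CPM in SUM and 1019 to 1451 CPM in WIN. Only this sum was without overlap. Each of the 3 overlapped by itself, among them miR-1 at 515 to 869 CPM in SUM and 762 to 1424 CPM in WIN. Neither of the 2 tested was called. The summed endothelial miRNAs (2 of 2 detected) were at 1065 to 2418 CPM in SUM and 2290 to 3595 CPM in WIN, with overlap. Of the 2, miR-126-3p was called lower in SUM (log2 fold change -1.02, adjusted p = 0.094 from limma). Among all tested miRNAs 7.82% were called (19 of 243). miR-126-5p, at 27.2 to 45.2 CPM in SUM and 23.0 to 50.7 CPM in WIN, was not called (log2 fold change 0.12, adjusted p = 0.90 from limma). The call of miR-126-3p held without SUM replicate 3 or WIN replicate 1 and ended without any other single library. The part of these sources in the values below was not tested.

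miR-29 in these vesicles was almost wholly miR-29a. Of 5405 family reads over all libraries, 5278 (97.7%) were miR-29a, 89 (1.65%) were miR-29b and 38 (0.703%) were miR-29c. All 3 were detected in every library. By mean CPM over the 8 libraries, miR-29a ranked 57 among the miRNAs of the table, miR-29b ranked 204 and miR-29c ranked 257. The 95% Poisson interval of miR-29a lay above those of both relatives in 8 of 8 libraries. Such intervals, and the binomial intervals of shares given below, cover counting error only, since reads made by PCR without molecular identifiers are not independent molecules. miR-29b stood above miR-29c in 6 of 8 libraries, yet their intervals were apart in only 1 of these, SUM replicate 4. In the other libraries the intervals of the rare members overlapped, and overlap alone does not tell whether their order exceeds counting error. miR-29a and miR-29c are near-identical in sequence, so reads of one could have been counted as the other.

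The RefSeq gene table (assembly ARS-UCD2.0, used only for names and neighbours) places these miRNAs in clusters. MIR29A is followed directly by MIR29B-1, and MIR29B-2 directly by MIR29C, which lies between MIR29B-2 and CD46. Mature miR-29b can come from either cluster, and its reads are a single entry in the table. Despite the shared clusters, the reads were far from even, with 14.4 to 113 reads of miR-29a for each read of miR-29b and miR-29c together. MIR29E and MIR29D also neighbour each other. Among their products, bta-miR-29d-5p had 31 reads in 6 of the 8 libraries, at up to 13.9 CPM, and bta-miR-29d-3p had 1 read, in WIN replicate 3. bta-miR-29e had no reads in any library, which allows levels of up to 1.70 CPM in the deepest and 12.1 CPM in the shallowest library (taking 3 reads as the limit that a count of 0 allows, a one-sided limit below the upper end of a two-sided interval).

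miR-29a, the member that carries nearly all of the family signal, had 946, 957, 925 and 1257 CPM in SUM replicates 1 to 4. In WIN replicates 1 to 4 it had 816, 803, 833 and 1012 CPM. Within each season 3 libraries lay close together and replicate 4 lay above them, and WIN replicate 4 was higher than 3 of the SUM libraries, so that the seasons overlapped. These values rest on 213 to 1469 reads per library. In SUM replicate 4 the counting interval, 1180 to 1338 CPM, lay apart from those of the other SUM libraries, while in WIN replicate 4 it was 932 to 1098 CPM and lay apart from those of WIN replicates 2 and 3 but just touched that of WIN replicate 1.

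In SUM the mean of miR-29a was 1021 CPM with an SD of 158, and in WIN it was 866 CPM with an SD of 98.2 (n = 4 each), which is 1.18 times as high in SUM. In limma on log2(CPM + 1), fitted over the 243 miRNAs with a mean above 10 CPM, SUM exceeded WIN by 0.23 on the log2 scale (95% interval -0.28 to 0.74, standard error 0.23, adjusted p = 0.59). The exact permutation test on CPM gave p = 0.11, where 4 libraries against 4 allow no p below 0.029. The interval reaches a 1.67-fold higher level in SUM and 0.825 of the WIN level, and a call here needed a fold change over 1.5 and an adjusted p below 0.1. Vesicles of pooled fluid come from many cells, and fewer cells of a type and less RNA per cell cannot be told apart. The difference shrank to a log2 fold change of 0.13 without SUM replicate 4. When all libraries were rescaled to the same summed CPM it was 0.05, a setting that moved the median of all tested miRNAs from 0.02 to -0.17.

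**Figure D1:**
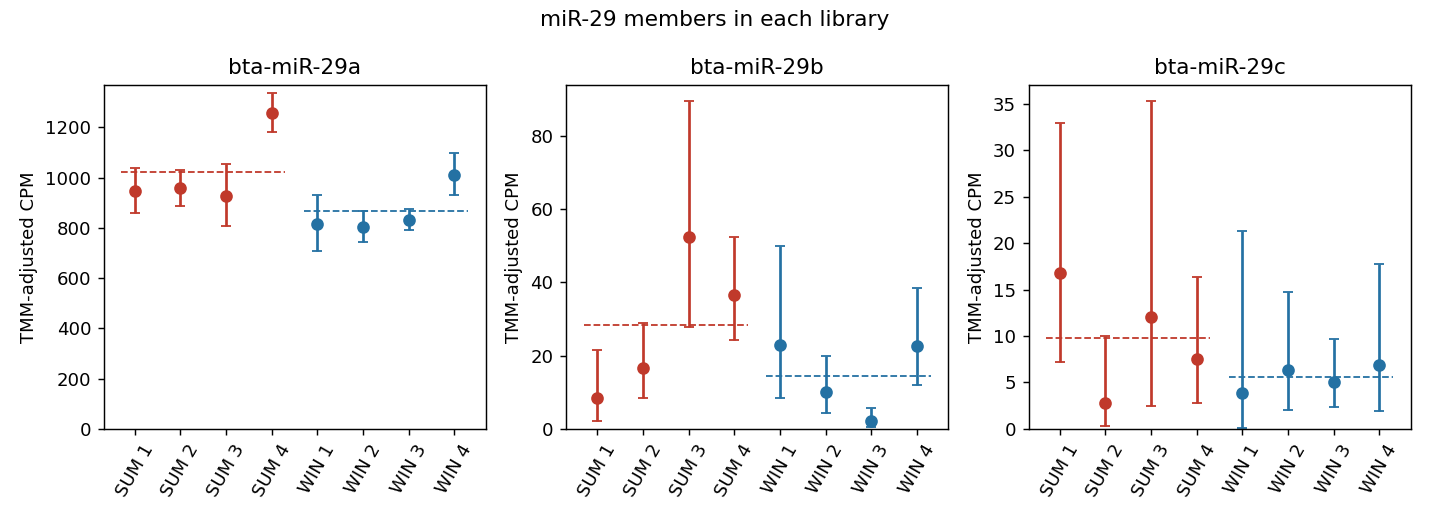
TMM-adjusted CPM of bta-miR-29a, bta-miR-29b and bta-miR-29c (y axis from 0, a scale for each panel) in the 4 SUM (red) and 4 WIN (blue) libraries, with 95% Poisson intervals of the reads as bars and season means as dashed lines. miR-29a stays within 803 to 1257 CPM with replicate 4 the highest of each season, while miR-29b runs from 2.27 to 52.3 CPM with wide intervals.

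miR-29b differs from miR-29a at its 3′ end, and in human cells that end is known to carry a signal for import into the nucleus. Here it had 8.37, 16.5, 52.3 and 36.4 CPM in SUM replicates 1 to 4. In WIN replicates 1 to 4 it had 23.0, 10.1, 2.27 and 22.5 CPM. The highest values were those of SUM replicates 3 and 4 and the lowest was that of WIN replicate 3, but the remaining libraries of the seasons were interleaved. The reads behind them were few, with 4, 12, 13 and 29 in SUM and 6, 8, 4 and 13 in WIN. The WIN replicate 3 value comes from the deepest library and has a counting interval of 0.618 to 5.81 CPM. It lies apart from those of WIN replicate 1, which starts at 8.43 CPM, and WIN replicate 4, which starts higher still and ends at 38.5 CPM. In SUM the interval of replicate 1 (2.28 to 21.4 CPM) lies apart from those of replicate 3 (27.8 to 89.4 CPM) and replicate 4 (24.4 to 52.3 CPM). Within seasons, the intervals were apart in 4 of 12 pairs of libraries for miR-29b, beside 5 of 12 for miR-29a, whose intervals are far narrower.

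In SUM the mean of miR-29b was 28.4 CPM with an SD of 19.8, and in WIN it was 14.5 CPM with an SD of 10.1 (n = 4 each), 1.96 times as high in SUM. Its log2 fold change of 0.999 had a standard error of 0.78 and a 95% interval of -0.71 to 2.71, and it was not called (adjusted p = 0.47 from limma). The exact permutation test on CPM gave p = 0.31. A 6.54-fold higher level in SUM and 0.610 of the WIN level both fall within that interval. The size turned on single libraries, since its log2 fold change was 0.37 when WIN replicate 3 was left out, 0.61 when SUM replicate 3 was and 1.45 when SUM replicate 1 was, and 1.71 by voom on the recovered reads.

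miR-29c, which in its mature form is closest to miR-29a, had 16.7, 2.75, 12.1 and 7.54 CPM in SUM replicates 1 to 4. In WIN replicates 1 to 4 it had 3.83, 6.34, 5.11 and 6.93 CPM. These are 1 to 9 reads per library, and no pair of libraries within a season had counting intervals apart. SUM replicate 2 was the lowest of all, and the other 3 SUM libraries lay above every WIN library. The mean was 9.77 CPM in SUM, with a CV of 61.4%, and 5.55 CPM in WIN, with a CV of 24.8% (n = 4 each), where the CV is the SD as a percent of the mean. The difference of 4.22 CPM gave p = 0.26 in the exact permutation test. Without SUM replicate 2 it was 6.56 CPM (exact permutation test, p = 0.029, the smallest that 3 against 4 libraries allow), and without SUM replicate 1 it was 1.90 CPM. With a mean of 7.66 CPM, miR-29c did not pass the filter of 10 CPM and was not among the miRNAs of the season test. Fitted by limma without that filter, it was 0.53 higher in SUM on the log2 scale (standard error 0.84) and was not called (adjusted p = 0.82).

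Of the 3 members, 2 passed the filter and neither of these was called, where 7.82% of all tested miRNAs were called (19 of 243, 13 higher and 6 lower in SUM). Likewise neither had seasons that did not overlap in CPM, as 16.0% of all tested miRNAs had (39 of 243). Leaving sign aside, 57 of the 243 tested miRNAs had a smaller log2 fold change than miR-29a, and 200 had a smaller one than miR-29b. The median size over all of them was 0.51. With all 8 libraries, the tests used here detected no difference between SUM and WIN for any member, although all 3 means were higher in SUM.

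**Figure D2:**
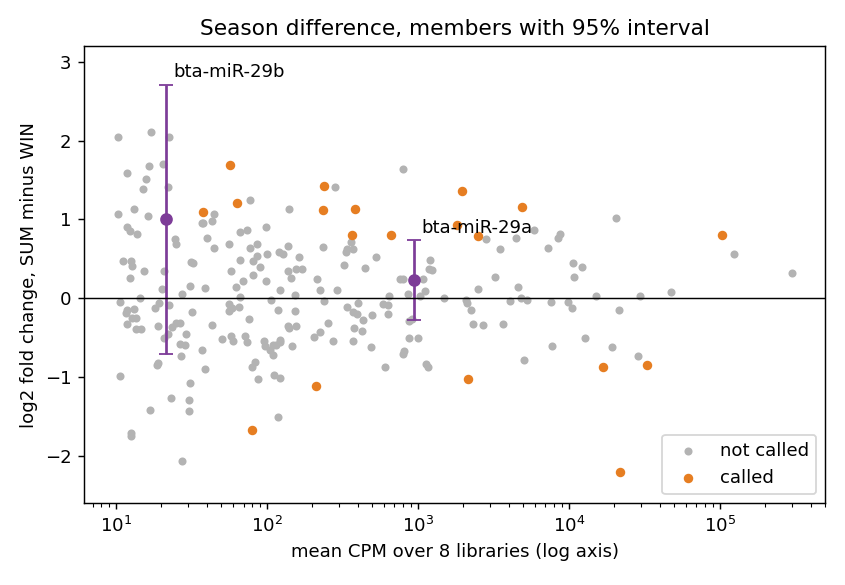
Log2 fold change of SUM against WIN from limma (y axis) against the mean CPM over the 8 libraries (x axis, log scale) for the 243 tested miRNAs, with the 19 called miRNAs in orange and the 95% interval drawn for bta-miR-29a and bta-miR-29b in purple. Both intervals include 0, and that of miR-29b spans -0.71 to 2.71.

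The members differed in how much they varied between libraries of the same season. The SD of log2(CPM + 1) within season was 0.18 for miR-29a and 1.24 for miR-29b, beside a median of 0.52 over the 243 tested miRNAs. From the lowest upward, miR-29a ranked 5 of 243. The 4 miRNAs below it, named after their values were seen, were miR-100 (0.15), miR-660 (0.17), miR-199a-5p (0.17) and miR-17-5p (0.18), all on the same scale. None of the 20 miRNAs nearest to miR-29a in abundance (639 to 1244 CPM) had a lower SD, and their median was 0.38. miR-29b ranked 208, and 13 of its 20 nearest in abundance (18.1 to 26.5 CPM) had a lower SD, with a median of 0.87. In CPM, the highest library had 1.56 times the lowest for miR-29a, 6.08 times for miR-29c and 23.0 times for miR-29b. The SDs are a description of these 8 libraries, and miRNAs of low abundance have a larger counting error.

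**Figure D3:**
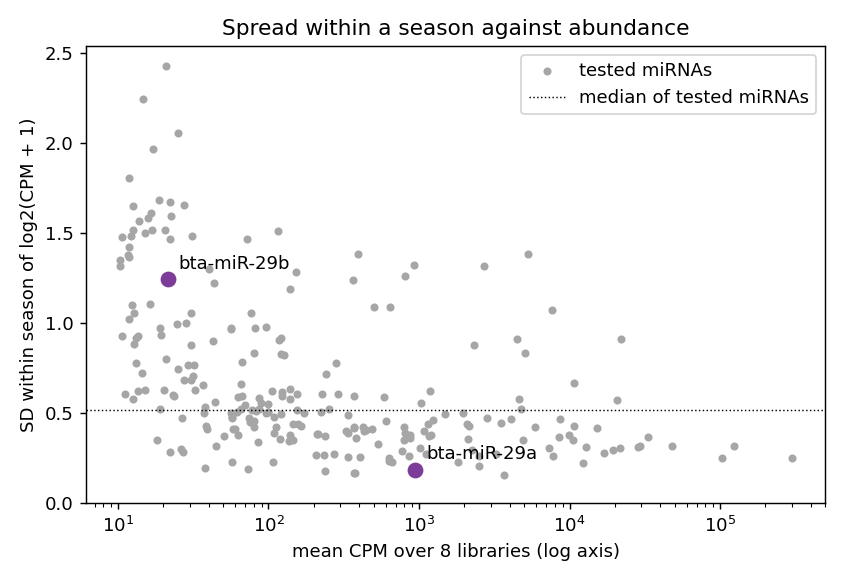
SD within season of log2(CPM + 1) (y axis) against the mean CPM over the 8 libraries (x axis, log scale) for each of the 243 tested miRNAs, with the members in purple and the median of all, 0.52, as a dotted line. miR-29a lies at the lower edge at 0.18, and miR-29b lies at 1.24 among the rare miRNAs on the left.

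Shares within the family do not depend on how the libraries were scaled. miR-29b made up 0.862%, 1.69%, 5.28% and 2.80% of the family reads in SUM replicates 1 to 4. In WIN replicates 1 to 4 the shares were 2.73%, 1.24%, 0.270% and 2.16%. The exact binomial interval began at 2.84% in SUM replicate 3 and ended at 0.690% in WIN replicate 3. The intervals of these 2 libraries did not overlap, but they are the highest and the lowest, picked by their values. The share of miR-29c ran from 0.282% to 1.72% in SUM and from 0.455% to 0.773% in WIN. Put as a ratio, there were 17.7 to 113 reads of miR-29a per read of miR-29b in SUM and 35.5 to 367 in WIN, and the seasons overlapped.

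The log2 ratio of miR-29b to miR-29a, on CPM + 1, averaged -5.41 in SUM (SD 1.08) and -6.17 in WIN (SD 1.30, n = 4 each). The difference of 0.77 gave p = 0.43 in the exact permutation test. Leaving out WIN replicate 3 brought it to 0.16, SUM replicate 3 to 0.34 and SUM replicate 1 to 1.18. The difference with all libraries is smaller than the SD within either season.

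**Figure D4:**
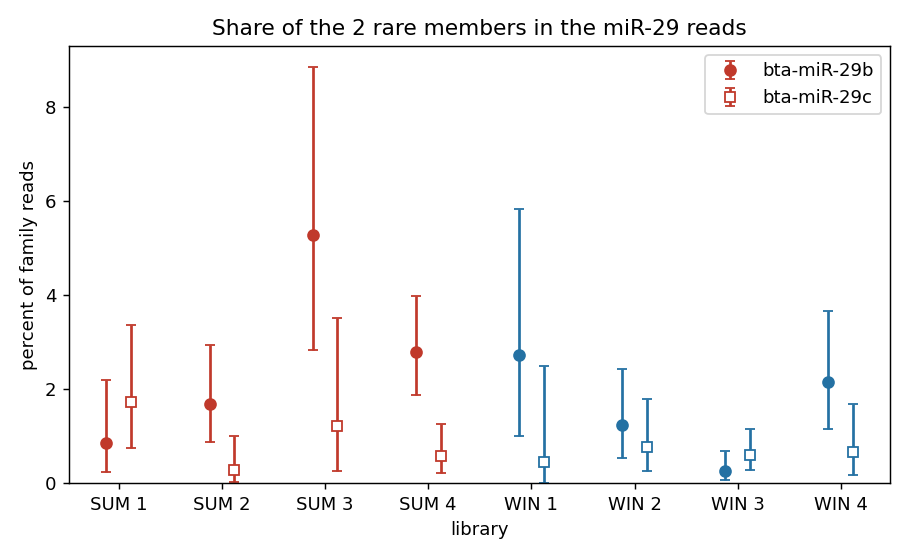
Percent of the reads of the 3 members that were bta-miR-29b (filled circles) or bta-miR-29c (open squares) in each SUM (red) and WIN (blue) library, with exact 95% binomial intervals as bars. The share of miR-29b is highest in SUM replicate 3 (5.28%) and lowest in WIN replicate 3 (0.270%), and miR-29c stays at or below 1.72%.

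The deepest library held the lowest miR-29b level and the shallowest the highest, so each member was set against depth over the 8 libraries. The p-values for miR-29b are thus of a relation picked from these same values. Depth also enters the CPM values as their divisor. For miR-29b, log2(CPM + 1) and log2 miRNA reads gave a Pearson r of -0.68 (exact permutation test, p = 0.065) and a Spearman rho of -0.48 (exact permutation test, p = 0.24). The adjusted p over the 6 relations computed was 0.39 for r and 0.66 for rho, and r was -0.51 without the libraries farthest from the median depth, SUM replicate 3 and WIN replicate 1. For miR-29a and depth r was 0.16 and rho 0.24 (exact permutation test, p = 0.72 and 0.58, adjusted p = 0.75 and 0.66). With miR-29c r was -0.29 and rho -0.36 (exact permutation test, p = 0.48 and 0.39, adjusted p = 0.75 and 0.66). Its r was -0.56 without SUM replicate 3 and WIN replicate 1. Between miR-29a and miR-29b r was 0.50 and rho 0.31 (exact permutation test, p = 0.21 and 0.46, adjusted p = 0.64 and 0.66), and r was 0.35 without SUM replicate 4 and WIN replicate 2. None of the 6 relations passed the adjustment, and within a season 4 libraries are too few for one. The part of depth in the miR-29b values was not tested otherwise. Its log2 fold change was 0.61 without SUM replicate 3, 1.33 without WIN replicate 1 and 0.95 without both of these shallowest libraries, so the single shifts went in opposite directions.

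The tested miRNAs whose log2(CPM + 1) followed miR-29a most closely over the 8 libraries were miR-3432b (Pearson r = 0.92), miR-429 (0.89), miR-455-5p (0.84), miR-200a (0.84) and miR-224 (0.81). For miR-29b they were miR-150 (Pearson r = 0.91), miR-23a (0.76), miR-222 (0.70), miR-205 (0.69) and miR-200c (0.63). Both lists hold miRNAs of the epithelial miR-200 family, miR-429 and miR-200a in the first and miR-200c in the second. miR-200b, which was tested too, is in neither. The lists hold no miRNA in common, and as the closest of 242 candidates over 8 points that share depth and scaling they describe likeness only. With miR-29b, miR-29a ranked 15 among these candidates, and miR-29b ranked 40 with miR-29a. Of the 10 listed, miR-200a and miR-222 were called higher in SUM. The call of each ended without SUM replicate 2 or 4 or WIN replicate 2, 3 or 4.

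miR-150, the closest to miR-29b, is a miRNA of lymphocytes. It had a mean of 32.2 CPM in SUM and 17.0 CPM in WIN, with a log2 fold change of 0.75 (adjusted p = 0.53 from limma). All 6 miRNAs of the white blood cell list were detected, and their summed level was 796 to 1233 CPM in SUM and 724 to 855 CPM in WIN, with overlap. Of these, 4 were tested, 1 was higher (miR-142-5p) and none was lower, beside 7.82% called among all tested miRNAs. The log2 fold change was positive for 2 of the 4 and negative for miR-155 (-0.18) and miR-146a (-0.61), which were not called. The call of miR-142-5p held in 3 of the 8 fits that left out a library, those without SUM replicate 1, SUM replicate 3 or WIN replicate 1. miR-142-3p, by its name the other arm of the same hairpin, was at 0 to 6.89 CPM in SUM and 7.60 to 13.9 CPM in WIN. As measured, the CPM of this rare arm were lower in SUM, opposite to miR-142-5p, and it was not among the tested miRNAs. A count of 0 allows up to 3.77 CPM in SUM replicate 4 and up to 12.1 CPM in SUM replicate 3. The order of the seasons is thus not settled for this arm. The part of white blood cells in the miR-29b values was not tested.

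miRNAs that act on the same or related processes as miR-29, not all with the same effect on them, had calls in both directions. Of 15 miRNAs known from human or mouse work to act on extracellular matrix or fibrosis, 13 were tested, 2 were higher in SUM, 1 was lower and 10 did not pass the test, where 7.82% of all tested miRNAs were called. The median log2 fold change of the 13 was 0.03, beside 0.02 over all tested miRNAs. miR-19b, which belongs to the miR-17-92 group and is known to repress connective tissue growth factor, was at 76.6 to 109 CPM in SUM and 22.7 to 32.9 CPM in WIN (log2 fold change 1.69, adjusted p = 0.036 from limma). miR-200a, which keeps epithelial cells from turning mesenchymal, was at 1707 to 4241 CPM in SUM and 836 to 1444 CPM in WIN (log2 fold change 1.36, adjusted p = 0.062 from limma). Its relatives in this list, miR-200b (log2 fold change 0.15) and miR-200c (0.03), were not called (adjusted p = 0.88 and 0.96 from limma). miR-26a, known to repress the histone methyltransferase EZH2, was at 20126 to 29714 CPM in SUM and 29892 to 56456 CPM in WIN (log2 fold change -0.85, adjusted p = 0.094 from limma). The call of miR-26a held without WIN replicate 1 and ended without any other single library, and that of miR-19b ended without WIN replicate 4.

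miR-21-5p, which is known as a miRNA that promotes fibrosis, averaged 15788 CPM in the SUM libraries beside 14598 CPM in those of WIN (log2 fold change 0.03, adjusted p = 0.96 from limma). Of 8 miRNAs known to repress DNA methyltransferases or EZH2, all were tested, none was higher, 1 was lower (miR-26a, counted in both lists) and 7 did not pass, so that 1 of 8 stands beside the 7.82% called among all tested miRNAs. Their median log2 fold change was 0.07. In this list miR-101, a repressor of EZH2, was near miR-29a in level, with a mean of 882 CPM in SUM and 846 CPM in WIN and a log2 fold change of 0.05 (adjusted p = 0.94 from limma).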

How the data were processed

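Small-RNA libraries (TruSeq) of FF-EVs were sequenced for 4 SUM and 4 WIN pools. Reads were trimmed, mapped to ARS-UCD1.2 and annotated with miRBase entries by the authors in CLC Genomics Workbench. The values deposited are TMM-adjusted CPM, a signal that does not add up to the same total in each library (860872 to 1222033). The submitters' processing notes also name bcl2fastq, Bowtie2 2.2.2 and DESeq2. Mapping settings could divide reads between near-identical members. The CPM value of 1 read, taken as the smallest nonzero value of a library, turned 100% of its values into whole reads (tolerance 0.001). Of 1028 miRNAs, 483 were at 0 in every library.

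Seasons were compared without covariates with limma 3.58.1 in R 4.3.3 (eBayes, trend), using log2(CPM + 1). A miRNA was tested when its mean passed 10 CPM, which 243 did, and p-values were adjusted over these by Benjamini-Hochberg. Fold changes on this scale understate changes of rare miRNAs. Single values were compared by two-sided exact permutation tests in Python 3.11.15 (numpy 2.4.6, scipy 1.17.1), and figures were drawn with matplotlib 3.10.9. The main limma fit and the edgeR fit of the recovered reads were tested on simulated counts, and the other fits were not. As alternatives, the pseudocount, the filter, the scaling and the variance model were changed, the recovered reads were fitted with edgeR 4.0.16, voom and DESeq2 1.42.0, a replicate block was added, and libraries were left out. The rule for the members uses names only, but the family, the lists and the tests were chosen with earlier results of these data known. The miRNAs named are the members, other miR-29 entries, the 5 closest in pattern to miR-29a and to miR-29b, called members of the lists, and a few examples chosen after their values were seen. Mature sequences were not used here.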

Additional observations from a re-analysis of the deposited data

Results flagged for a closer look

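For miR-29a, 1 library stood far from the other 3 of its season in both seasons. SUM replicate 4 had 1257 CPM, and its gap to the next library was 0.904 of the range of the SUM values. WIN replicate 4 had 1012 CPM, with a gap of 0.856 of the WIN range. Chance alone flags about 1 of 20 such groups of 4. The summed level of the 3 members gave the same libraries, at 1301 CPM in SUM replicate 4 and 1042 CPM in WIN replicate 4, but this sum is nearly all miR-29a and adds no separate evidence. In all, 10 groups of values were examined in this way. Without SUM replicate 4 the SUM mean of miR-29a was 943 ± 16.2 CPM (SD, n = 3), and without WIN replicate 4 the WIN mean was 817 ± 15.1 CPM (SD, n = 3). The shared replicate number is not stated to mark shared cows.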

How the results depend on the processing

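miR-29a and miR-29b were called under none of their 19 and 18 alternatives, and the log2 fold change was positive in each. miR-29b could not be fitted with a filter of 50 CPM. Leaving out 1 library gave 0.13 to 0.31 for miR-29a (adjusted p 0.46 to 0.83) and 0.37 to 1.45 for miR-29b (adjusted p 0.34 to 0.82). For the ratio of miR-29b to miR-29a it gave 0.16 to 1.18 (exact permutation test, p = 0.26 to 0.83). For the difference of miR-29c it gave 1.90 to 6.56 CPM (exact permutation test, p = 0.029 to 0.49), and only without SUM replicate 2 did that pass 0.05.

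Over all miRNAs, where 19 were called, the count was 8 without the filter, 33 after rescaling to equal summed CPM (11 higher and 22 lower, in place of 13 and 6), 35 by edgeR, 45 by DESeq2, 35 by voom and 35 without the shallowest library of each season. Without 1 library it ranged from 0 (without WIN replicate 4) to 30 (without SUM replicate 3). Causes were not tested. Same-numbered libraries did not deviate together in every pair (r of -0.02, 0.30, 0.06 and 0.24). For SUM replicates 2 and 4 the same-numbered library was the closest of the WIN libraries, and for replicates 1 and 3 it was not. The check does not settle whether the numbers mark pairing. With the replicate number as a block 25 miRNAs were called, and miR-29a stayed at 0.23 (adjusted p = 0.58 from limma), miR-29b at 0.999 (adjusted p = 0.48 from limma), miR-29c at 4.22 CPM and the ratio at 0.77. Few reads limit miR-29b and miR-29c, of which some libraries held 4 and 1.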
